A study of Homo sapiens with 36 samples.

Results

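The genes described here encode the myeloid growth factors M-CSF (CSF1), interleukin-34 (IL34), GM-CSF (CSF2) and G-CSF (CSF3) and the IL-6 family cytokines interleukin-6 (IL6), leukaemia inhibitory factor (LIF) and interleukin-11 (IL11). They were chosen by gene symbol, as colony stimulating factors, IL34 and IL-6 family cytokines that squamous carcinoma cells can make. These 7 genes are among 58735 in the deposited count table. All 7 were in the table; 6 had enough reads to be tested, and IL34 did not.

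Colony stimulating factors drive the growth, survival and maturation of myeloid cells: CSF1 and IL34 share the receptor CSF1R on monocytes and macrophages, CSF2 acts on granulocytes, macrophages and dendritic cells through CSF2RA with CSF2RB, and CSF3 acts on neutrophils through CSF3R. IL6, LIF and IL11 each bind a receptor of their own (IL6R, LIFR, IL11RA) and signal through the shared chain gp130 (IL6ST) to JAK kinases and STAT3, whose target SOCS3 feeds back on the pathway. In squamous carcinomas of the head and neck these factors are known as tumour-made signals to the myeloid cells and fibroblasts around the tumour, and IL6 and LIF also as signals to the tumour cells themselves.

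RNA-seq counts were available for 36 libraries of HN4, HN6 and Cal27, 3 established human lines of head and neck squamous cell carcinoma, in 12 groups of 3 libraries. In the IL-8 experiment each line was left untreated or received recombinant human IL-8, a neutrophil-attracting chemokine, at 100 ng per ml for 24 h; the question was how lines that differ in the IL-8 receptor CXCR1 respond. In the plasmid experiment each line was transfected with an empty vector or with a plasmid for ACLY, an enzyme that turns citrate into acetyl-CoA, to find what lies downstream of ACLY. All groups were grown in medium with serum depleted of exosomes; the time after transfection was not given in the sources used here. The labels number the replicates of a group but do not tell whether each is a culture of its own. All p-values therefore refer to the spread among these libraries, and that spread may be technical. Levels are CPM, counts set against the library total and scaled with TMM factors, and are given as mean ± SD over the 3 libraries of a group (n = 3). Differences are log2 fold changes from edgeR's quasi-likelihood fit with their standard errors (SE), and a call is a Benjamini-Hochberg adjusted p under 0.05 over all genes tested.

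The RefSeq promoter table held 3 of the 7 genes, CSF2, IL6 and IL11, and their 250 bases before the transcription start are shown because these 3 genes differed among the lines and moved in several of the comparisons. Capitals mark the motif matches that were found when both strands were searched for TGANTCA (AP-1), TGACGTCA (the cyclic AMP response element), a short kappa B form (GGG and TTTCC with any 2 bases between), the NF-kB consensus and TTCNNNGAA (STAT). The sequences are from GRCh38.p14, written 5′ to 3′ along the gene, for CSF2 chr5:132073539-132073788 on the plus strand, for IL6 chr7:22726950-22727199 on the plus strand and for IL11 chr19:55370464-55370713 on the minus strand. The IL6 window lies inside the gene span given below (chr7:22725884-22732002), which opens upstream of the RefSeq start used here.
CSF2: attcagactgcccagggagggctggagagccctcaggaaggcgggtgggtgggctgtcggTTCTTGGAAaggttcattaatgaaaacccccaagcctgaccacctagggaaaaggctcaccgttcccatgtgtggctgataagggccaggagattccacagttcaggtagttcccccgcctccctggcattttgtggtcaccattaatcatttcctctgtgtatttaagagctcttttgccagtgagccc
IL6: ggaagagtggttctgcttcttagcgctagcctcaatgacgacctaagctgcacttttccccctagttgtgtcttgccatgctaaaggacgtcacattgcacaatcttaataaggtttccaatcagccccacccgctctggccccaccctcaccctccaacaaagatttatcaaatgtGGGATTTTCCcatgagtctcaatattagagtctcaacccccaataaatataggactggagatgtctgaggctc
IL11: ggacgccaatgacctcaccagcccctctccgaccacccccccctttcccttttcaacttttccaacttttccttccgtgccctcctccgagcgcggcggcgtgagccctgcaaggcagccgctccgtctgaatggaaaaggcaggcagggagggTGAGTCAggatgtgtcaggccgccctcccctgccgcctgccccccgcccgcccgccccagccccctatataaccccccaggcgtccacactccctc
In CSF2 the match was the STAT form TTCTTGGAA, 190 to 182 bases before the start. In IL6 it was GGGATTTTCC, 73 to 64 bases before the start, which meets the short kappa B form and the NF-kB consensus at the same bases. In IL11 it was TGAGTCA, the AP-1 form, 96 to 90 bases before the start. Of 35116 RefSeq promoters of the same length, 6.57% held the AP-1 form, 1.65% the cyclic AMP response element, 1.73% the short kappa B form, 5.21% the NF-kB consensus and 6.57% the STAT form. A match is a description of the letters in this window only. Promoters of CSF1, IL34, CSF3 and LIF are not shown.

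Library totals ran from 16570601 to 20232735 counts, and where a gene had 0 counts, its level could still be as high as 0.148 to 0.181 CPM, the worth of 3 counts (counting error only). The 8 squamous markers summed to 1154 to 7056 CPM, but not each was present in each line: KRT14 was at 1016 ± 83.1 CPM in untreated Cal27, at 0.688 ± 0.194 CPM in HN6 and at 0 reads in HN4, and KRT6A was at 646 ± 36.6, 8.53 ± 0.254 and 5.71 ± 1.52 CPM. In Cal27 their sum was 3717 to 3908 CPM with ACLY against 6358.5 to 7056 CPM with vector. With IL-8 it was 4795 to 6199 CPM against 6362 to 7002 CPM untreated. In HN6 it was 2583 to 2623 CPM with ACLY against 2338 to 2365.5 CPM, and overlapped with IL-8. In HN4 it was 1161 to 1169 CPM with the ACLY label against 1238 to 1274 CPM. With IL-8 in HN4 it was 1233 to 1264 CPM against 1154 to 1184 CPM. Among leukocyte markers, which matter here because leukocytes make and read these factors, PTPRC, LYZ and CD3E reached at most 0.12, 0.17 and 1.27 CPM in any library, and CD14 and ITGAM at most 7.89 and 9.74 CPM. Leukocyte markers summed to 4.98 to 7.07 CPM in Cal27 with ACLY against 11.9 to 14.4 CPM with vector. With IL-8 in Cal27 they summed to 7.04 to 8.09 CPM against 10.8 to 13.0 CPM untreated. In HN6 with ACLY they summed to 7.66 to 8.16 CPM against 4.22 to 5.24 CPM with vector. In the other treatment comparisons these sums overlapped. The part of the squamous and leukocyte lists in the differences below was not tested. ACLY went against the plasmid labels in HN4: it was at 348 ± 30.4 CPM in the HN4 libraries labelled ACLY and at 1508 ± 10.0 CPM in those labelled vector, against 374 ± 5.19 CPM in untreated HN4. In HN6 and Cal27 it was higher with the ACLY plasmid (2210 ± 65.3 against 268 ± 4.98 CPM, and 1901 ± 40.2 against 230 ± 12.1 CPM). ACLY was also higher with IL-8 in HN4 (1351 ± 18.1 CPM) and in Cal27 (1170 ± 110 against 233 ± 4.98 CPM), but not in HN6 (224 ± 3.15 against 280 ± 4.17 CPM). Cal27 libraries with IL-8 or the ACLY plasmid held reads of 11 genes that were otherwise read in HN4 (at least 20 CPM in untreated HN4, at most 0.3 CPM in the other 2 untreated lines); their median level was 30.9% ± 2.07 of the HN4 level with IL-8 and 55.6% ± 0.758 with ACLY, and 0 in both Cal27 controls. At the same time 13 Cal27-only genes stood at 62.8% ± 7.70 and 26.2% ± 1.69 of their untreated Cal27 level. Replicate 3 of Cal27 with IL-8 stood apart, with 1.06% mitochondrial reads against 3.37% and 3.59% in the others, and so did replicate 3 of the HN4 libraries labelled ACLY, with 2.15% against 5.71% and 6.03%.

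In untreated cells, HN4 was the line with the highest CSF3, LIF and IL6, HN6 the line with the highest CSF1 and IL11, and CSF2 was high in HN4 and Cal27 and low in HN6. CSF1 (chr1:109910242-109930992), which encodes M-CSF, was at 75.8 ± 2.65 CPM in HN6, 58.5 ± 1.31 CPM in Cal27 and 24.4 ± 1.46 CPM in HN4. Its libraries did not overlap between any pair of lines, and HN6 exceeded HN4 by 1.62 on the log2 scale (SE 0.0748, edgeR adjusted p = 2.06e-12). In bulk RNA, fewer cells making a transcript and less of it per cell cannot be told apart. IL34 (chr16:70579895-70660682), which encodes the other ligand of CSF1R, had 0 to 1 reads in each untreated library.

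CSF2 (chr5:132073790-132076170), which encodes GM-CSF, stood at 51.1, 54.4 and 48.5 CPM in the untreated HN4 libraries, at 43.6, 41.6 and 42.0 CPM in Cal27 and at 15.1, 11.8 and 13.1 CPM in HN6. The HN6 libraries lay below all others, and the HN4 libraries lay above those of Cal27. HN6 was lower than HN4 by −1.96 (log2, SE 0.204, edgeR adjusted p = 1.39e-07), while Cal27 and HN4 differed by −0.26 (log2, SE 0.191, edgeR adjusted p = 0.251). That last difference was called when replicate 3 of Cal27 with IL-8 was left out (edgeR adjusted p = 0.00117) and when only the 6 libraries compared were fitted (0.00146).

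CSF3 (chr17:40015361-40017813), which encodes G-CSF, the main growth factor of neutrophils, showed the widest range. It was at 118, 127 and 121 CPM in untreated HN4, at 1.59, 1.58 and 1.24 CPM in Cal27 and at 1.24, 1.03 and 0.886 CPM in HN6. The HN6 values rest on 22, 18 and 15 reads. CSF3 in HN6 was 0.860% ± 0.148 of the untreated HN4 level and in Cal27 1.2% ± 0.164, with log2 differences from HN4 of −6.86 (SE 0.241, edgeR adjusted p = 6.46e-14) and −6.36 (SE 0.228, 6.82e-14). Cal27 and HN6 overlapped and did not pass the test against each other (log2 0.50, edgeR adjusted p = 0.186).

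IL6 (chr7:22725884-22732002), which encodes the acute-phase cytokine interleukin-6, was at 18.6 ± 1.55 CPM in untreated HN4, 6.17 ± 0.997 CPM in HN6 and 1.49 ± 0.331 CPM in Cal27, in that order without overlap. Cal27 lay −3.61 below HN4 on the log2 scale (SE 0.209, edgeR adjusted p = 4.87e-11) and −2.01 below HN6 (SE 0.223, 3.01e-07). Exons of IL6 overlap STEAP1B and AC073072.1 on the opposite strand; STEAP1B had 5.10 ± 0.874 CPM in untreated HN6, 0.719 ± 0.102 CPM in HN4 and 0.0342 ± 0.0297 CPM in Cal27. Without a stated strand setting, reads of such partners cannot be told apart.

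LIF (chr22:30240447-30246851), which encodes leukaemia inhibitory factor, was at 378, 376 and 383 CPM in untreated HN4, at 82.4, 70.5 and 83.4 CPM in HN6 and at 75.8, 66.1 and 74.5 CPM in Cal27. HN4 stood well above the other lines, which overlapped. HN6 was at 20.8% ± 1.89 and Cal27 at 19.0% ± 1.38 of the untreated HN4 mean (log2 −2.28 and −2.37, edgeR adjusted p = 5.53e-14 and 2.63e-14). Between Cal27 and HN6 LIF did not pass the test (log2 −0.10, SE 0.0765, edgeR adjusted p = 0.271). It did so with replicate 2 of untreated HN6 left out (0.0482). The antisense genes LIF-AS1 and AC004264.1 overlap its exons; AC004264.1 had 9.0 ± 0.788 CPM in untreated HN4 and 0.957 ± 0.201 CPM in HN6.

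IL11 (chr19:55364389-55370463), which encodes a gp130 cytokine known for its action on stroma and platelets, followed another order. It was at 15.7, 13.8 and 12.1 CPM in untreated HN6, at 7.95, 7.21 and 8.43 CPM in HN4 and at 1.54, 1.16 and 1.04 CPM in Cal27. No library of a line reached those of the next line. HN6 exceeded HN4 by 0.81 on the log2 scale (SE 0.162, edgeR adjusted p = 0.000268), and Cal27 lay −3.44 below HN6 (SE 0.203, 5.84e-11).

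Between untreated HN6 and HN4, 6 of the 6 tested genes were called, 2 higher and 4 lower in HN6, where 67.2% of all genes were called, 32.4% higher and 34.7% lower. Between untreated Cal27 and HN4, 5 were called, 1 higher and 4 lower, against 63.6% of all genes (32.2% higher, 31.4% lower). Between untreated Cal27 and HN6, 4 were called, 1 higher and 3 lower, against 68.4% of all genes (35.3% higher, 33.1% lower). These comparisons share the untreated libraries. In the plasmid experiment, with other libraries, Cal27 with vector against HN6 with vector gave 5 calls, 2 higher and 3 lower, against 73.3% of all genes (36.7% higher, 36.6% lower). Most genes differed between these lines, so the number of cytokine genes called is no result about them. The median log2 difference from HN4 over the 6 genes was −1.78 in HN6 and −2.51 in Cal27, beside medians of −0.03 and 0.00 over all 18398 genes tested. TMM scaling keeps the median over all genes near 0 here and below, so that median does not show how widely genes differed.

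**Figure D1:**
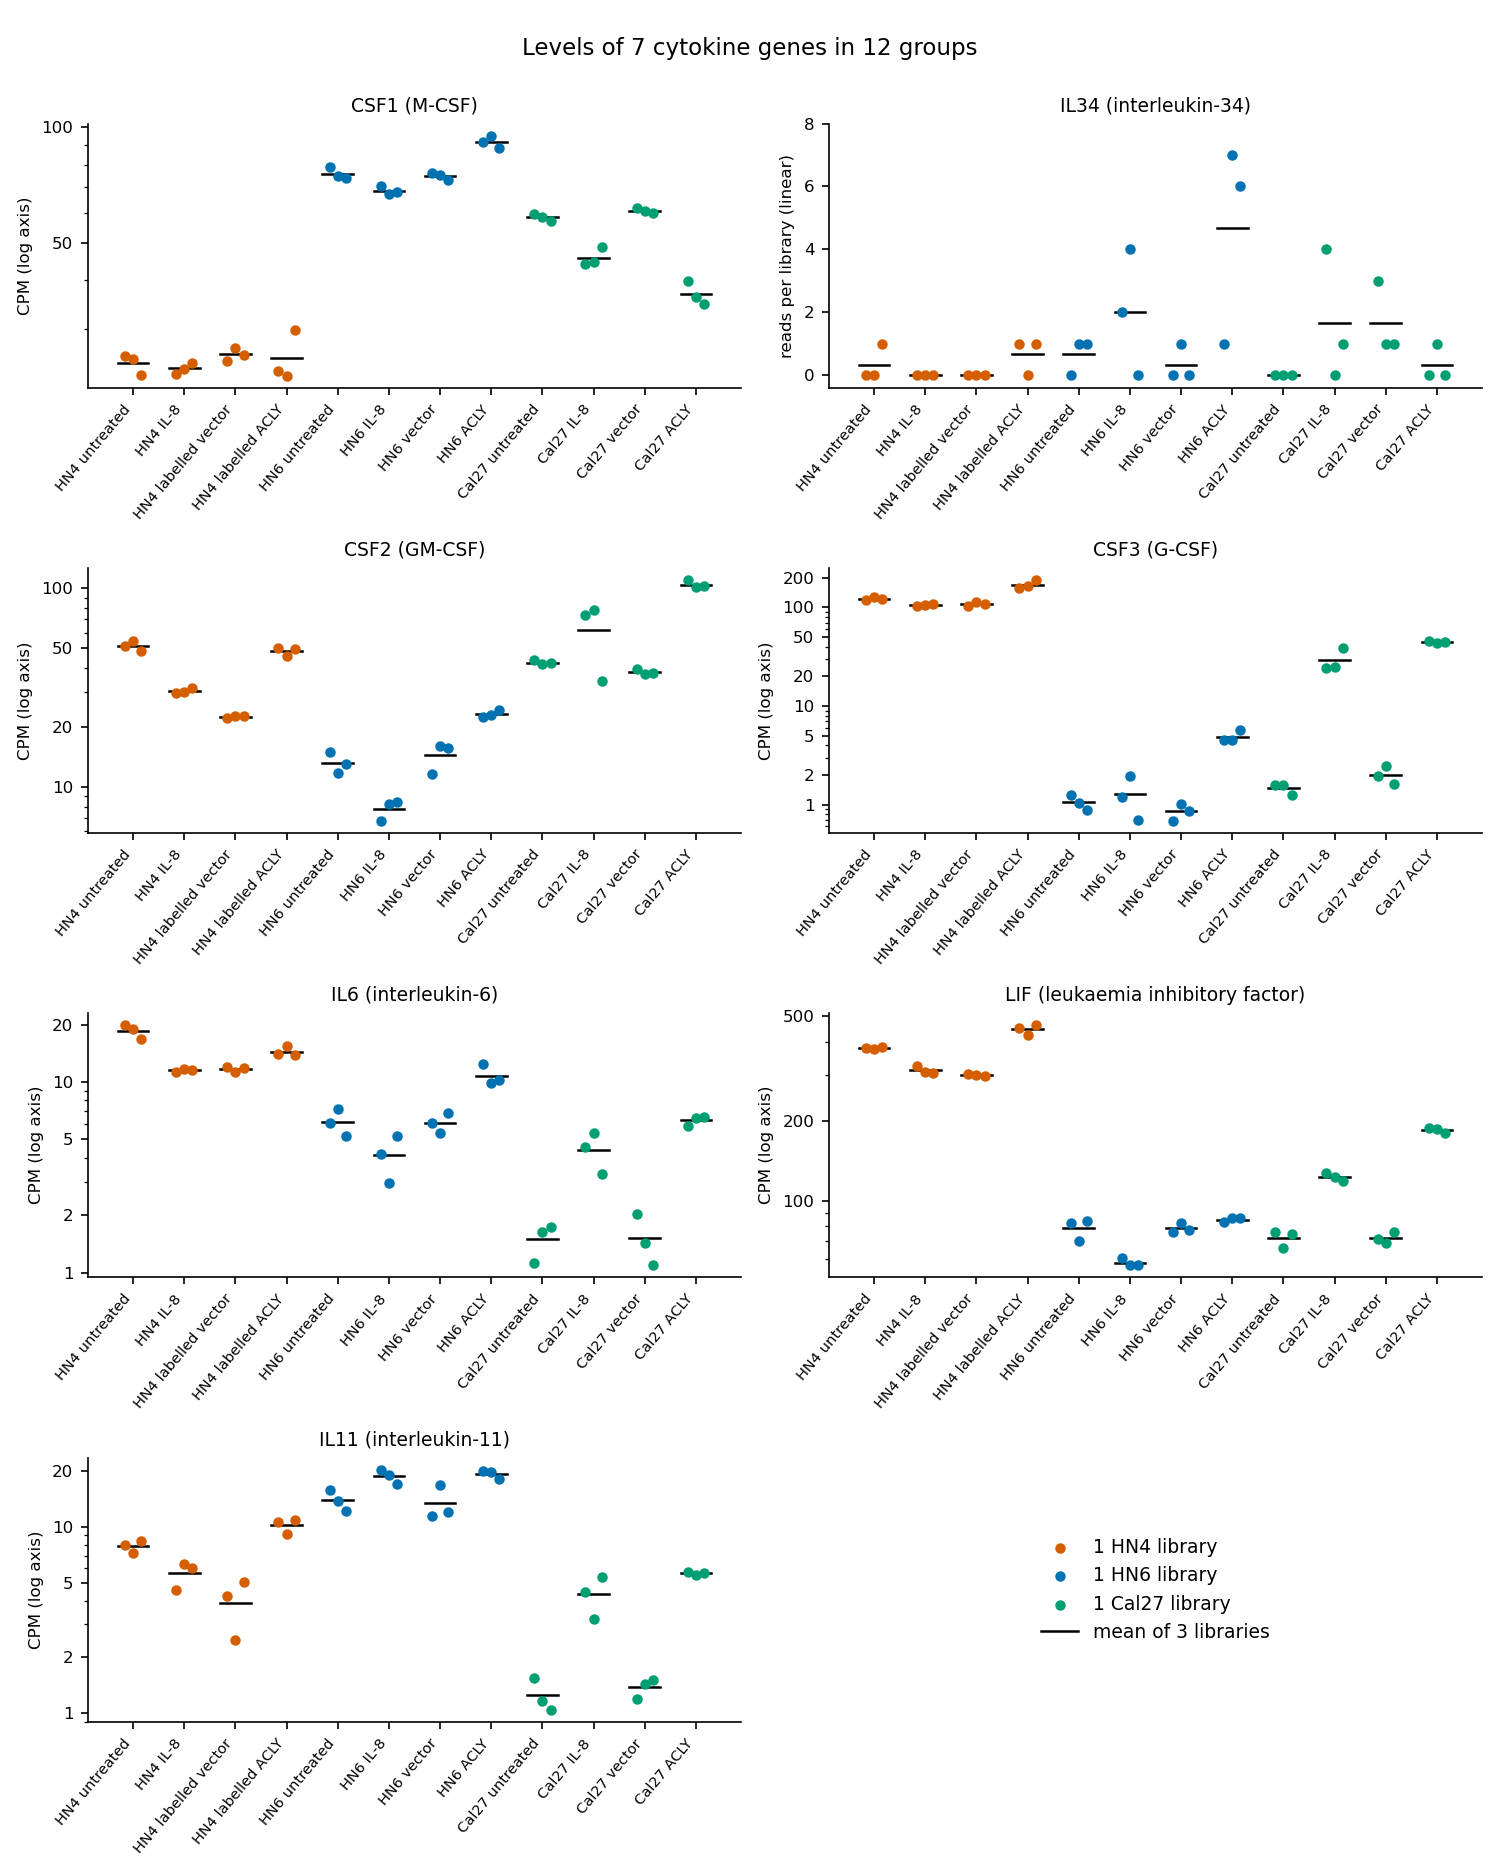
Levels of the 7 genes in 12 groups; points are single libraries, black lines the means of 3, colours the lines, on a log axis in CPM for 6 genes and as reads per library for IL34. LIF and CSF3 sit highest in the 4 HN4 groups, CSF1 and IL11 in HN6, and CSF2 in Cal27 with the ACLY plasmid, where its mean is 105 CPM.

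Per unit of gene length (CPM per kb), the makeup of these transcripts differed by line. In untreated HN4, LIF made up 41.1% of the summed level of the 7 genes per kb, CSF2 28.1% and CSF3 23.7%. In untreated Cal27, CSF2 made up 63.6% and LIF 21.5%, and CSF3 only 0.782%. In untreated HN6 the parts were more even, with LIF at 33.4%, CSF2 at 28.5%, CSF1 at 23.5% and IL11 at 8.74%. With IL-8 and with the ACLY plasmid, the CSF3 part in Cal27 was 9.72% and 9.48%, and CSF2 remained the largest part at 58.2% and 62.8%.

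**Figure D2:**
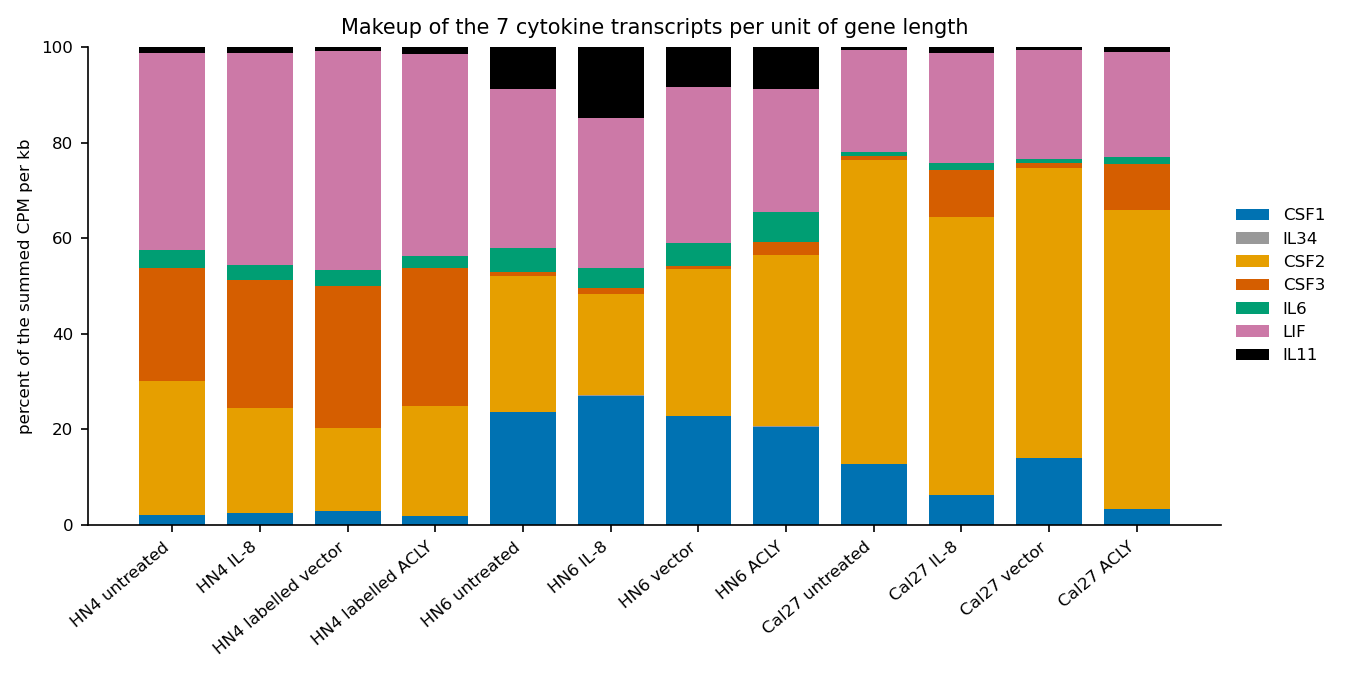
Stacked bars of each gene's percent of the summed mean level per kb, from 0 to 100, for the 12 groups. LIF is the largest part in all 4 HN4 groups (41.1% untreated) and CSF2 in all 4 Cal27 groups (63.6% untreated).

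In HN4, CSF2, IL6 and LIF were lower with IL-8. CSF2 was at 29.8, 30.3 and 31.7 CPM with IL-8 against 51.1, 54.4 and 48.5 CPM untreated, with every treated library below every untreated one (log2 −0.75, SE 0.193, edgeR adjusted p = 0.0156). IL6 was at 11.3, 11.7 and 11.6 CPM against 19.9, 19.0 and 16.9 CPM, again without overlap (log2 −0.69, SE 0.168, edgeR adjusted p = 0.0104). LIF, the gene of this set with the highest CPM in HN4, was at 326, 309 and 304 CPM against 378, 376 and 383 CPM (log2 −0.28, SE 0.0748, edgeR adjusted p = 0.0196).

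CSF3 in HN4 stood at 106 ± 2.41 CPM with IL-8 against 122 ± 4.62 CPM, without overlap but short of a call (log2 −0.21, edgeR adjusted p = 0.444). IL11 stood at 5.63 ± 0.912 against 7.86 ± 0.619 CPM (log2 −0.48, edgeR adjusted p = 0.0773), and CSF1 at 23.6 ± 0.794 against 24.4 ± 1.46 CPM (log2 −0.05, edgeR adjusted p = 0.756). So 3 of the 6 genes were called, 0 higher and 3 lower, where 14.0% of all genes were called, 6.89% higher and 7.09% lower. The median over the 6 was −0.38 and over all genes −0.01. The IL6 call held in 26 of 26 alternative fits, the CSF2 call in 23 and the LIF call in 20. The count was 1 without replicate 2 of untreated HN4 or of HN4 with IL-8, and 5 without replicate 3 of Cal27 with IL-8. The 7 fibroblast markers summed to 5.51 to 6.88 CPM with IL-8 and to 9.40 to 11.2 CPM untreated, with COL1A2 and DCN at 0 reads in both groups, and the 4 endothelial markers overlapped; the part of these lists was not tested.

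In HN6, CSF2 and LIF were lower with IL-8. LIF was at 60.3, 56.8 and 57.1 CPM with IL-8 against 82.4, 70.5 and 83.4 CPM untreated, with no overlap (log2 −0.43, SE 0.0770, edgeR adjusted p = 0.00106). CSF2 was at 6.81, 8.22 and 8.41 CPM against 15.1, 11.8 and 13.1 CPM, also with no overlap (log2 −0.76, SE 0.219, edgeR adjusted p = 0.0253). LIF was called in 26 of 26 alternative fits and CSF2 in 20; CSF2 was not called without any single IL-8 library of HN6, without replicate 1 or 3 of untreated HN6, or with library size alone as the scale (0.0561).

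IL6 in HN6 was at 4.11 ± 1.13 CPM with IL-8 against 6.17 ± 0.997 CPM, with overlap (log2 −0.58, edgeR adjusted p = 0.0539). IL11 was at 18.7 ± 1.62 against 13.9 ± 1.81 CPM, without overlap (log2 0.44, SE 0.154, edgeR adjusted p = 0.0611). CSF1 stood at 68.4 ± 1.78 against 75.8 ± 2.65 CPM (log2 −0.14, edgeR adjusted p = 0.22) and CSF3 at 1.27 ± 0.624 against 1.05 ± 0.181 CPM (log2 0.29, edgeR adjusted p = 0.622). In all, 2 of the 6 were called, 0 higher and 2 lower, against 15.4% of all genes (7.61% higher, 7.81% lower). The median over the 6 was −0.28 and over all genes 0.00. With DESeq2, IL6 (adjusted p = 0.0261) and IL11 (0.0338) were called as well. The fibroblast markers summed to 29.1 to 31.1 CPM with IL-8 and to 17.0 to 17.96 CPM untreated, most of it COL1A1 (21.8 against 13.6 CPM), with COL1A2, COL3A1 and PDGFRA at 0 reads in both groups. The endothelial markers summed to 11.71 to 12.8 CPM and to 9.04 to 11.66 CPM, with KDR at 0 reads in both. The part of these lists in the differences was not tested.

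In Cal27, IL-8 went with higher CSF3, IL6, IL11, LIF and CSF2 and lower CSF1. CSF3 was at 24.1, 24.9 and 38.3 CPM with IL-8 against 1.59, 1.58 and 1.24 CPM untreated, every treated library far above the untreated ones (log2 4.29, SE 0.226, 19.6-fold, edgeR adjusted p = 1.33e-10). IL11 was at 4.48, 3.20 and 5.35 CPM against 1.54, 1.16 and 1.04 CPM (log2 1.78, SE 0.223, edgeR adjusted p = 8.15e-06). IL6 was at 4.53, 5.43 and 3.27 CPM against 1.12, 1.63 and 1.73 CPM (log2 1.55, SE 0.230, edgeR adjusted p = 5.55e-05). Neither IL11 nor IL6 overlapped between the groups.

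LIF in Cal27 was at 127, 123 and 119 CPM with IL-8 against 75.8, 66.1 and 74.5 CPM untreated, without overlap (log2 0.76, SE 0.0765, edgeR adjusted p = 7.01e-07). CSF1 was at 44.3, 44.6 and 48.8 CPM against 59.7, 58.6 and 57.1 CPM, the only called fall (log2 −0.36, SE 0.0724, edgeR adjusted p = 0.000866). CSF2 was at 73.7, 77.5 and 34.1 CPM against 43.6, 41.6 and 42.0 CPM, so that 2 treated libraries lay above the untreated ones and the library with few mitochondrial reads lay below them. Its difference was 0.53 on the log2 scale (SE 0.190, edgeR adjusted p = 0.0361), and 0.81 without that library (3.16e-11). The CSF2 call was lost without either of the other IL-8 libraries (0.133 and 0.166), without any single untreated Cal27 library, with library size alone (0.0712), with upper-quartile scaling (0.0651) and with only the 6 libraries of the line (0.22). The last setting also ended the CSF1 call (0.0729).

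All 6 tested genes were thus called in Cal27 with IL-8, 5 higher and 1 lower, against 39.4% of all genes (22.7% higher, 16.7% lower). The median over the 6 was 1.15 and over all genes 0.00. The HN4-only genes in the same libraries stood at 29.2% to 33.2% of their HN4 level. As percent of the untreated HN4 mean, CSF3 was at 23.8% ± 6.55, IL6 at 23.7% ± 5.83, LIF at 32.4% ± 1.07 and IL11 at 55.2% ± 13.7 in these libraries, while CSF2 was at 120% ± 46.8 and CSF1 at 188% ± 10.3. In the same libraries the fibroblast markers summed to 15.1 to 22.7 CPM against 27.0 to 29.2 CPM untreated, with DCN and PDGFRA at 0 reads in both groups, and the endothelial markers to 15.7 to 18.8 CPM against 26.7 to 28.1 CPM, with KDR at 0 reads in both. The part of the HN4-only reads and of these lists in the differences was not tested.

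The response to IL-8 differed among the 3 lines for CSF2, CSF3, IL6, LIF and IL11, 5 of the 6 tested genes, where 40.2% of all genes did so (edgeR, 2 degrees of freedom). For CSF1 the difference among lines was not called (edgeR adjusted p = 0.0514), although it was under DESeq2 (0.00502). CSF2, IL6 and LIF had negative fitted differences in HN4 and HN6 and positive ones in Cal27. IL11 was lower in HN4 and higher in HN6 by fitted values that did not pass the test, and CSF3 passed it in Cal27 alone, except that it also did so in HN4 without replicate 3 of Cal27 with IL-8 (edgeR adjusted p = 0.014) and with only the HN4 libraries fitted (5.87e-05). The test of the difference for each of these 2 genes includes Cal27. The Cal27 libraries with IL-8 held HN4-only genes at 30.9% of their HN4 level, and the part of these in the differences among lines was not tested.

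In the plasmid experiment the HN4 libraries labelled ACLY, whose ACLY level is the lower one, had more CSF2, CSF3, LIF and IL11 than those labelled vector. CSF2 was at 50.2, 45.8 and 49.6 CPM in the libraries labelled ACLY against 22.3, 22.8 and 22.9 CPM in those labelled vector (log2 1.10, SE 0.0813, edgeR adjusted p = 5.9e-13). IL11 was at 10.6, 9.12 and 10.9 CPM against 4.24, 2.47 and 5.03 CPM (log2 1.38, SE 0.173, edgeR adjusted p = 8.22e-08). CSF3 was at 159, 164 and 189 CPM against 104, 113 and 108 CPM (log2 0.66, SE 0.0686, edgeR adjusted p = 1.52e-09). None of the 3 genes had overlapping groups.

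LIF was at 453, 424 and 464 CPM in the HN4 libraries labelled ACLY against 302, 300 and 298 CPM in those labelled vector, the highest level of LIF in any group (log2 0.58, SE 0.0481, edgeR adjusted p = 9.19e-12). IL6 stood at 14.4 ± 0.831 against 11.7 ± 0.383 CPM, without overlap and short of a call (log2 0.31, SE 0.129, edgeR adjusted p = 0.0582); DESeq2 called it (0.0451). CSF1 stood at 25.2 ± 3.96 against 25.7 ± 1.06 CPM (log2 −0.02, edgeR adjusted p = 0.89). Of the 6 genes, 4 were called, 4 higher and 0 lower as labelled, against 38.1% of all genes (18.9% higher, 19.1% lower). The median over the 6 was 0.62 and over all genes 0.01. The fibroblast markers summed to 7.57 to 9.997 CPM in the libraries labelled ACLY and to 5.43 to 7.22 CPM in those labelled vector, with COL1A2, COL3A1 and DCN at 0 reads in both, and the endothelial markers overlapped; their part was not tested. If the HN4 labels were exchanged, each direction would turn.

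In HN6 the ACLY plasmid went with higher CSF3, IL6, CSF2, IL11 and CSF1. CSF3 was at 4.48, 4.52 and 5.65 CPM against 0.689, 1.01 and 0.855 CPM with vector (log2 2.52, SE 0.195, 5.72-fold, edgeR adjusted p = 3.52e-13), still 3.99% ± 0.541 of the untreated HN4 level. IL6 was at 12.4, 9.81 and 10.2 CPM against 6.08, 5.41 and 6.84 CPM (log2 0.82, SE 0.141, edgeR adjusted p = 6.97e-06). CSF2 was at 22.5, 23.0 and 24.4 CPM against 11.7, 16.2 and 15.8 CPM (log2 0.68, SE 0.0901, edgeR adjusted p = 7.44e-08). In these 3 genes all libraries with ACLY lay above all libraries with vector.

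IL11 was at 19.9, 19.6 and 18.01 CPM in HN6 with ACLY against 11.4, 16.7 and 12.03 CPM with vector (log2 0.52, SE 0.144, edgeR adjusted p = 0.00271). CSF1 was at 91.6, 95.3 and 88.3 CPM against 75.9, 75.1 and 73.1 CPM, its highest level in any group (log2 0.30, SE 0.0709, edgeR adjusted p = 0.00059). LIF stood at 84.7 ± 1.65 against 78.5 ± 3.13 CPM and was not called (log2 0.11, edgeR adjusted p = 0.0681), but was under scaling by library size alone (0.00887) or upper quartile (0.0038), and when genes under 1 CPM on average were dropped (0.0212). So 5 of the 6 were called, 5 higher and 0 lower, against 51.6% of all genes (26.8% higher, 24.9% lower). The median over the 6 was 0.60 and over all genes 0.04. The HN4-only genes were at 0 in these libraries, and 11 HN6-only genes stood at 78.5% ± 2.66 of their untreated level. The part of the latter in these differences was not tested. Fibroblast markers, 7 genes, summed to 52.6 to 60.6 CPM in HN6 with ACLY and to 18.5 to 22.1 CPM with vector; most of the difference was in COL1A1 (44.9 against 14.8 CPM), and DCN and PDGFRA had 0 reads in both groups. The 4 endothelial markers summed to 19.5 to 22.0 CPM against 10.03 to 12.4 CPM. The part of these lists in the differences was not tested. IL34, at 1, 7 and 6 reads, had its highest count here, against 0, 1 and 0 reads with vector, with no test because its counts were below the filter.

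In Cal27 the ACLY plasmid went with higher CSF3, IL6, IL11, CSF2 and LIF and lower CSF1, and each fitted difference was the largest in size of the 6 treatment comparisons. CSF3 was at 45.4, 43.4 and 45.0 CPM with ACLY against 1.94, 2.44 and 1.61 CPM with vector (log2 4.47, SE 0.115, 22.1-fold, edgeR adjusted p = 1.19e-26). IL6 was at 5.88, 6.49 and 6.56 CPM against 2.04, 1.43 and 1.09 CPM (log2 2.03, SE 0.181, edgeR adjusted p = 7.15e-12). IL11 was at 5.72, 5.48 and 5.65 CPM against 1.19, 1.43 and 1.51 CPM (log2 2.01, SE 0.216, edgeR adjusted p = 6.53e-10). The groups of these 3 genes lay far apart.

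CSF2 was at 110, 101 and 102 CPM in Cal27 with ACLY against 39.3, 37.2 and 37.7 CPM with vector, its highest level among the 12 groups (log2 1.44, SE 0.0752, edgeR adjusted p = 5.52e-18). LIF was at 189, 188 and 181 CPM against 71.8, 69.2 and 75.8 CPM (log2 1.35, SE 0.0511, edgeR adjusted p = 6.81e-22). CSF1 alone fell, to 39.9, 36.3 and 34.7 CPM from 61.8, 60.5 and 60.1 CPM (log2 −0.73, SE 0.0749, edgeR adjusted p = 1.98e-10). All 6 genes were called, 5 higher and 1 lower, against 63.2% of all genes (34.2% higher, 29.0% lower). The median over the 6 was 1.73 and over all genes 0.03.

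In the same Cal27 libraries with ACLY the HN4-only genes stood at 55.04% to 56.5% of their HN4 level. As percent of the untreated HN4 mean, CSF3 was at 36.4% ± 0.857, IL6 at 33.9% ± 1.99, LIF at 49.0% ± 1.22 and IL11 at 71.4% ± 1.58. CSF1, which is lower in HN4 than in Cal27, stood at 151% ± 10.8 of the HN4 mean, down from 249% ± 3.61 with vector. CSF2 stood at 204% ± 9.06, above untreated HN4 and above Cal27 with vector (74.2% ± 2.15). The 7 fibroblast markers summed to 7.98 to 9.63 CPM with ACLY and to 30.1 to 32.3 CPM with vector, with DCN and PDGFRA at 0 reads in both. The endothelial markers summed to 11.9 to 13.4 CPM against 26.8 to 28.2 CPM, with KDR at 0 reads in both. The part of the HN4-only reads and of these lists in the differences was not tested.

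**Figure D3:**
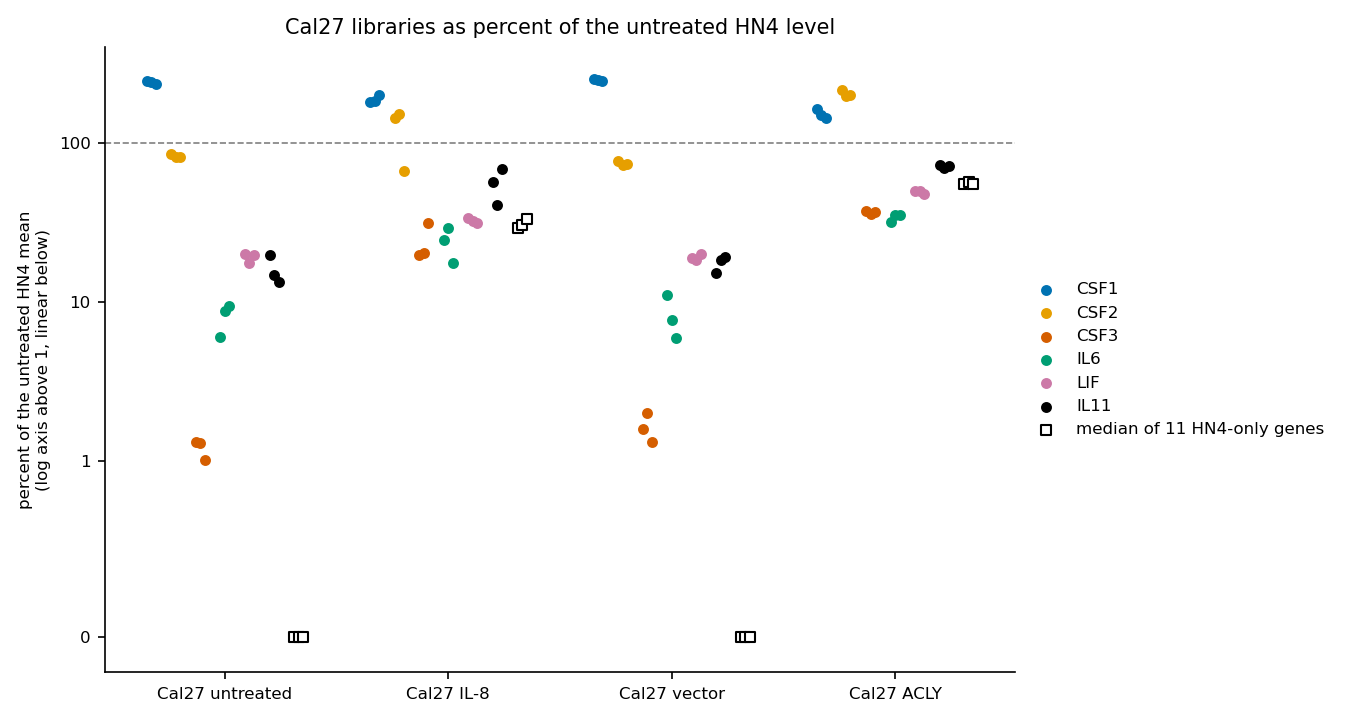
Levels in the 12 Cal27 libraries as percent of the untreated HN4 mean, 1 point per library, with open squares for the median of 11 HN4-only genes and a dashed line at 100; the axis is logarithmic above 1 and linear below. With ACLY, CSF3, IL6, LIF, IL11, CSF1 and CSF2 lie at 36.4%, 33.9%, 49.0%, 71.4%, 151% and 204%, and the HN4-only median at 55.6%. With vector the same genes lie at 1.63%, 8.17%, 19.1%, 17.5%, 249% and 74.2%, and the HN4-only median at 0.

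The plasmid difference was larger in Cal27 than in HN6 for CSF2, CSF3, IL6, LIF and IL11, and of opposite sign for CSF1. This difference between lines was called for 6 of the 6 genes, where 61.9% of all genes were called. For LIF the response in Cal27 minus that in HN6 was 1.24 on the log2 scale (SE 0.0726, edgeR adjusted p = 1.22e-16), and for CSF1 −1.03 (SE 0.103, edgeR adjusted p = 1.08e-10). HN4 was left out of this test because its labels went against ACLY. The Cal27 libraries with ACLY held HN4-only genes at 55.6% of their HN4 level, and the part of these was not tested.

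**Figure D4:**
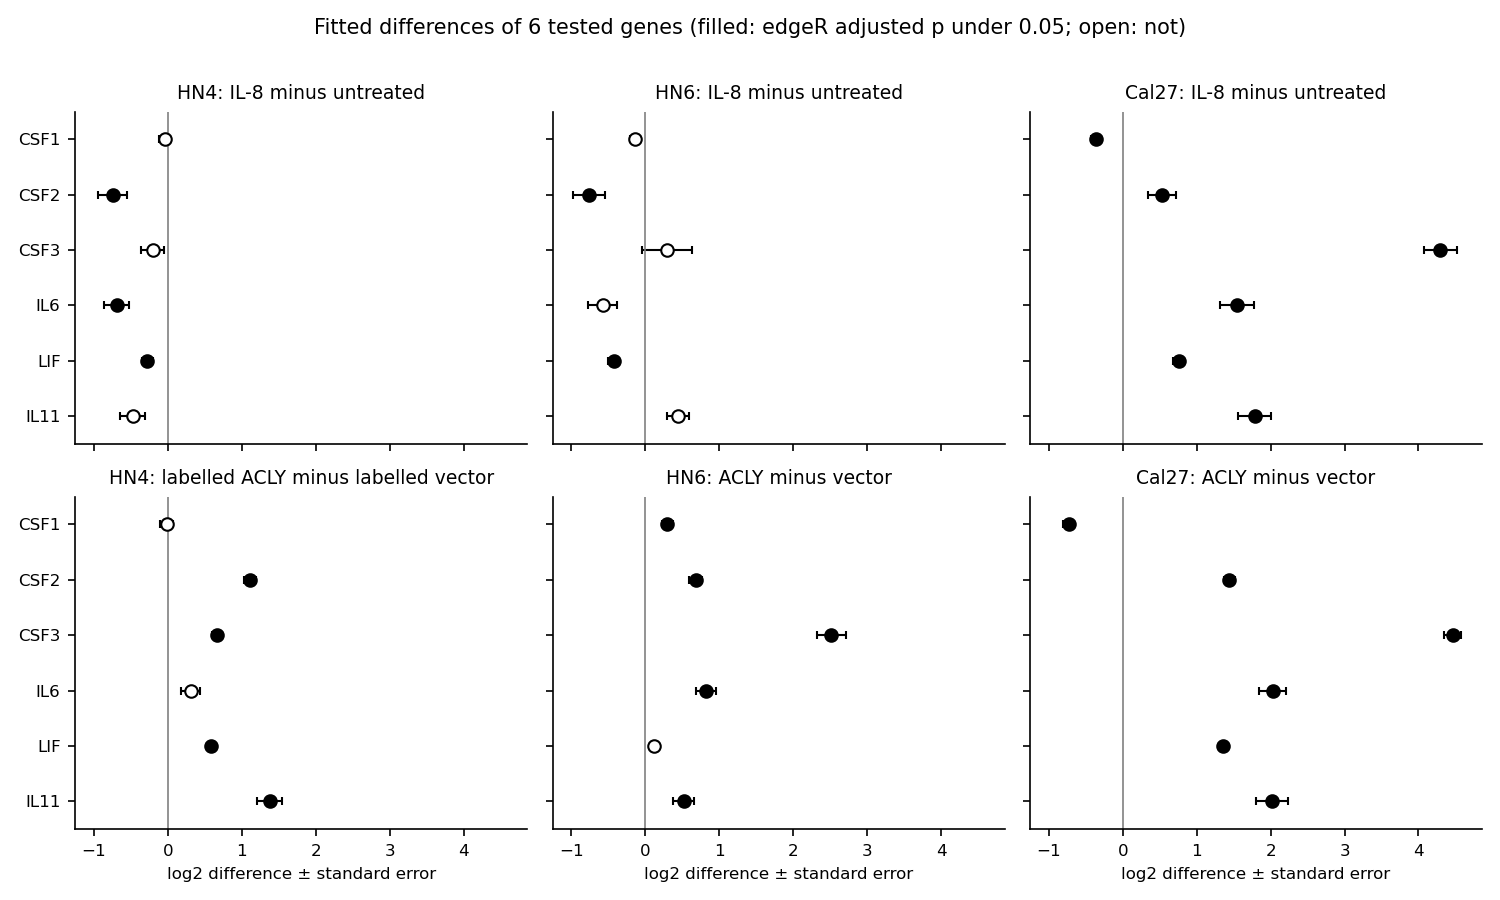
Fitted log2 differences with standard errors for the 6 tested genes in the IL-8 (upper) and plasmid (lower) comparisons of HN4, HN6 and Cal27; filled points have an edgeR adjusted p under 0.05. CSF3 reaches 4.29 with IL-8 and 4.47 with ACLY in Cal27, while CSF2, IL6 and LIF are left of 0 with IL-8 in HN4.

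Across the 12 groups each gene had its own order. LIF was highest in the HN4 libraries labelled ACLY (447 ± 20.9 CPM), then untreated HN4 (379 ± 3.90), IL-8 treated HN4 (313 ± 11.4) and the HN4 libraries labelled vector (300 ± 1.72), each without overlap with the next. Cal27 with ACLY (186 ± 4.62) and with IL-8 (123 ± 4.07) followed, again apart, and the remaining groups lay between 58.1 and 84.7 CPM, where HN6 with ACLY, untreated HN6 and HN6 with vector overlapped in turn, as did both Cal27 controls. CSF3 had nearly the same order: HN4 labelled ACLY (170 ± 16.1), untreated HN4 (122 ± 4.62), then the HN4 libraries labelled vector and those with IL-8, which overlapped, then Cal27 with ACLY, Cal27 with IL-8, HN6 with ACLY and Cal27 with vector, all apart. The lowest 4 groups of CSF3 had means of 0.852 to 1.47 CPM and overlapped in turn.

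CSF2 was highest in Cal27 with ACLY (105 ± 4.65 CPM) and lowest in HN6 with IL-8 (7.81 ± 0.874 CPM), both apart from their neighbours. Cal27 with IL-8, whose libraries spread widely, overlapped untreated HN4, which in turn overlapped HN4 labelled ACLY. CSF1 was highest in HN6 with ACLY (91.7 ± 3.49 CPM); untreated HN6 and HN6 with vector overlapped, the other HN6 and all Cal27 groups were apart in turn, and the 4 HN4 groups, at 23.6 to 25.7 CPM, overlapped at the bottom. IL6 ran from 18.6 ± 1.55 CPM in untreated HN4 to 1.49 ± 0.331 CPM in untreated Cal27, with overlapping runs of 3 groups (HN4 labelled vector, HN4 with IL-8, HN6 with ACLY), of 5 groups (from Cal27 with ACLY down to HN6 with IL-8) and of both Cal27 controls. IL11 was highest in HN6 with ACLY (19.2 ± 1.02) and HN6 with IL-8 (18.7 ± 1.62), which overlapped, and lowest in both Cal27 controls. IL34 had 0 to 7 reads in every library, and its groups could not be ranked.

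Over the 12 group means, as a description of points that share lines and libraries, log2 levels of CSF3 and LIF ran together (Pearson r = 0.96), and CSF1 ran against both (r = −0.93 and −0.94). IL11 was little related to LIF (r = −0.03) or CSF3 (r = −0.08). Among 11830 genes with a mean log2 level of at least 1, those most like LIF were SLC22A4 (r = 0.990), MICALL1 (0.989) and ZNF710 (0.987). Those most like CSF3 were HOXA9 (0.992), RAB25 (0.990) and BAIAP2L2 (0.989), and those most like CSF1 were EDIL3 (0.995), TOX4 (0.993) and COL4A6 (0.992). For IL6 they were PLXNB1 (0.988), FSIP2 (0.986) and ICA1L (0.984), and for IL11 CHMP4B (0.987), ORMDL3 (0.984) and SULT2B1 (0.979). CSF2 had less close companions, MIB2 (0.933), MKRN3 (0.922) and SBNO2 (0.920).

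Of the 12 receptor genes of these cytokines, 9 had enough reads to be tested. CSF3R, the G-CSF receptor, had at most 0.174 CPM in any library and CSF2RB, the signalling chain of the GM-CSF receptor, at most 0.151 CPM; CNTFR was also untested. IL6ST, the gp130 chain, was read in all groups at 125 to 211 CPM and was called in none of the 6 treatment comparisons. LIFR, the LIF receptor, was at 48.3 ± 4.66 CPM in untreated HN6, 26.1 ± 2.98 CPM in Cal27 and 3.96 ± 0.407 CPM in HN4, the line with the most LIF. IL6R was at 77.7 CPM in untreated Cal27, the line with the least IL6, at 34.2 CPM in HN4 and at 18.1 CPM in HN6.

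In Cal27, LIFR fell to 13.0 ± 3.03 CPM with IL-8 (log2 −1.02, edgeR adjusted p = 0.000141) and to 7.27 ± 0.845 CPM with ACLY (log2 −1.86, edgeR adjusted p = 6.57e-17). IL6R and CSF1R fell in both comparisons too. CSF2RA, the GM-CSF binding chain, had 0 reads in untreated Cal27 and 2 reads in the libraries with vector, against 6.05 ± 0.845 CPM with IL-8 and 10.4 ± 0.482 CPM with ACLY; it was at 22.7 ± 0.814 CPM in untreated HN4 and 7.65 ± 0.246 CPM in HN6. HN4-only genes stood at 30.9% and 55.6% of their HN4 level in these libraries with IL-8 and with ACLY. IL6R was at 57.5 and 46.6 CPM there, against 77.7 CPM in untreated Cal27 and 34.2 CPM in untreated HN4. CSF1R was at 9.64 and 9.70 CPM there, against 14.0 CPM in untreated Cal27 and 13.5 CPM in untreated HN4. LIFR was at 3.96 CPM in untreated HN4. The part of the HN4-only reads in any of these receptor differences was not tested. In Cal27 4 of 9 receptors were called with IL-8, 1 higher and 3 lower, where 39.4% of all genes were called, and 6 with ACLY, 2 higher and 4 lower, where 63.2% were; both counts are near the share of all genes. In HN6 with ACLY 5 were called, near the 51.6% of all genes, 3 higher, among them CSF1R (29.6 against 13.1 CPM, log2 1.17) and OSMR (394 against 243 CPM, log2 0.70), and 2 lower, SDC1, a co-receptor of IL34 (log2 −0.67), and IL6R (log2 −0.56). In HN6 with IL-8, 1 receptor was called, IL6R (log2 −0.28, edgeR adjusted p = 0.0194), beside 15.4% of all genes. In HN4 with IL-8 edgeR called 0 of 9, beside 14.0% of all genes at the same edgeR threshold. Of the 9, 2 had an unadjusted p under 0.05 and DESeq2 called 1. Shares of all genes by these other measures are not given. In the HN4 libraries labelled ACLY 5 were called, 2 higher and 3 lower, beside 38.1% of all genes. OSMR (log2 0.33) and CSF1R (log2 0.49) were higher there. SDC1 (log2 −0.14), IL6R (log2 −0.30) and LIFR (log2 −0.57) were lower.

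**Figure D5:**
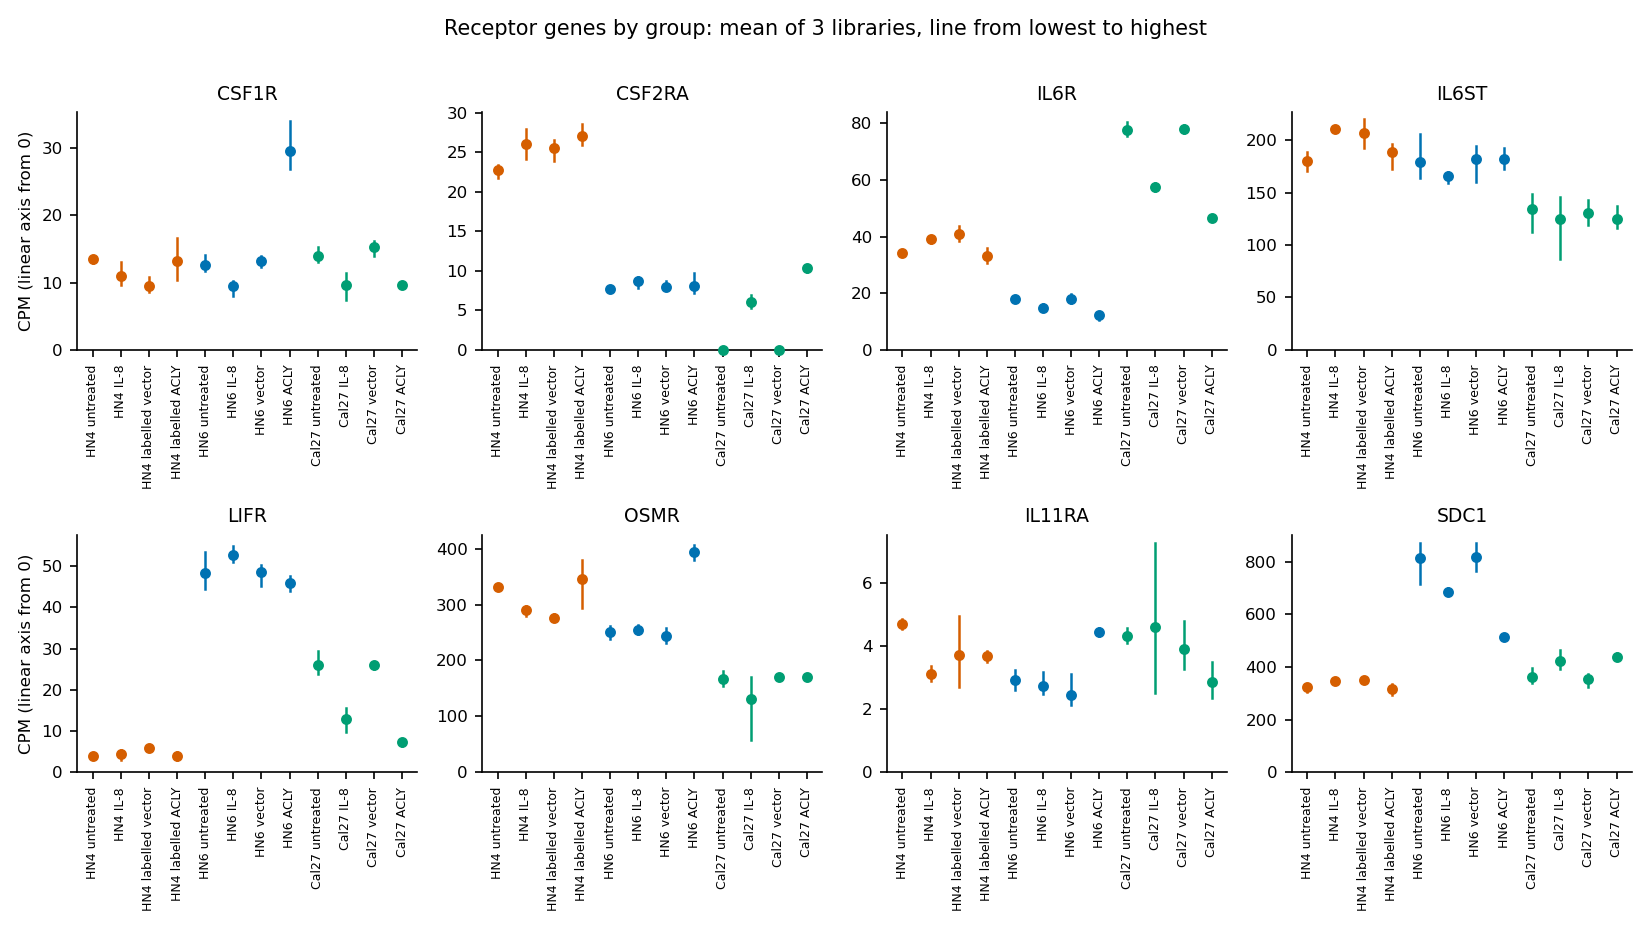
Levels of 8 receptor genes in CPM on linear axes from 0, with dots for the mean of 3 libraries and lines from the lowest to the highest library in each of 12 groups, coloured by line. LIFR is highest in HN6 (48.3 CPM untreated) and lowest in HN4 (3.96 CPM), and CSF2RA is at 0 in untreated Cal27 and at 10.4 CPM in Cal27 with ACLY.

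Of 13 other ligands of these receptor families, 8 were tested; OSM, IL27, IL31, IL3 and IL5 were below the filter. CLCF1, a ligand of the CNTF receptor, and KITLG, the stem cell factor, were the most abundant. KITLG was at 45.0 CPM in untreated HN6, 32.8 CPM in Cal27 and 10.2 CPM in HN4. It fell with the ACLY plasmid in HN6 (log2 −0.76, edgeR adjusted p = 2.08e-08) and Cal27 (log2 −0.46, 0.000118). In HN4 it was lower in the libraries labelled ACLY, whose ACLY level is the lower one (log2 −1.07, edgeR adjusted p = 7.02e-09). It also fell with IL-8 in Cal27, from 32.8 to 23.3 CPM (log2 −0.51, edgeR adjusted p = 0.0177). CLCF1 was called with a treatment only in Cal27 with ACLY, where it was at 13.1 against 8.36 CPM (log2 0.63, edgeR adjusted p = 0.00695). The Cal27 libraries with IL-8 and with ACLY held HN4-only genes at 30.9% and 55.6% of their HN4 level. The part of these in the differences was not tested. Over the list, 1 of 8 was higher and 2 lower with IL-8 in HN4, 0 and 1 in HN6, and 0 and 2 in Cal27, beside 14.0%, 15.4% and 39.4% of all genes called. With ACLY, 2 were higher and 1 lower in HN6, 2 and 4 in Cal27, and 3 and 2 in the HN4 libraries labelled ACLY, beside 51.6%, 63.2% and 38.1% of all genes.

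Among 14 genes of JAK-STAT signalling and its feedback, 1 was higher and 1 lower with IL-8 in HN4, 1 was higher in HN6, and 2 were higher and 3 lower in Cal27. With 14.0%, 15.4% and 39.4% of all genes called in these comparisons, the counts in HN4 and Cal27 are near the share of all genes. STAT3, the main transcription factor below gp130, was called in no IL-8 comparison, and neither was SOCS3, its feedback inhibitor. PIM1, a kinase gene induced by STAT factors, rose with IL-8 in HN6 from 29.3 to 58.0 CPM (log2 1.00, edgeR adjusted p = 8.69e-07) and fell in HN4 from 24.5 to 14.9 CPM (log2 −0.72, 6.72e-05) and in Cal27 from 45.5 to 34.2 CPM (log2 −0.43, 0.00105). With ACLY in HN6, 7 were higher and 6 lower, beside 51.6% of all genes called; SOCS3 rose (log2 0.36) and STAT3 fell (log2 −0.27). With ACLY in Cal27, 4 were higher and 6 lower, beside 63.2% of all genes. SOCS3 (log2 0.54) and STAT3 (log2 0.20) rose and JAK1 fell (log2 −0.72). The part of the HN4-only reads in the Cal27 differences was not tested. In the HN4 libraries labelled ACLY, 2 were higher and 2 lower, beside 38.1% of all genes, with PIM1 at 30.4 against 12.9 CPM (log2 1.24).

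The lifetime of CSF2, IL6 and related cytokine transcripts is known to depend on proteins that bind AU-rich elements or stem loops. The list of 10 genes for such proteins holds both kinds, those that promote decay, such as ZFP36L1 and ZC3H12A, and those that stabilise transcripts, ELAVL1 and ARID5A. With IL-8, 1 was higher and 1 lower in HN4, edgeR called 0 in HN6, and 3 were higher and 1 lower in Cal27. At the same edgeR threshold 14.0%, 15.4% and 39.4% of all genes were called. In HN6, 2 of the list had an unadjusted p under 0.05 and DESeq2 called 0. Shares of all genes by these other measures are not given. With ACLY in HN6, 5 were higher and 3 lower, beside 51.6% of all genes; among them ZC3H12A, an endonuclease that cuts IL6 mRNA, rose from 147 to 280 CPM (log2 0.93, edgeR adjusted p = 5.68e-16) and ZFP36L1, which binds AU-rich elements and promotes decay, from 272 to 387 CPM (log2 0.51, 2.26e-06). The 3 lower in HN6 with ACLY were HNRNPD (446 against 651 CPM, log2 −0.54, edgeR adjusted p = 1.82e-07), KHSRP (279 against 423 CPM, log2 −0.60, 1.55e-11) and ELAVL1 (log2 −0.61). In Cal27 with ACLY, 5 were higher and 1 lower, near the 63.2% of all genes. HNRNPD (log2 0.78), KHSRP (log2 0.25) and ELAVL1 (log2 0.48) were among those higher. In Cal27 ZFP36L1 rose from 98.4 to 178 CPM (log2 0.84, edgeR adjusted p = 9.26e-10), a gene at 433 CPM in untreated HN4. The part of the HN4-only reads in these Cal27 differences was not tested. In the HN4 libraries labelled ACLY, 3 were higher and 4 lower, beside 38.1% of all genes. The medians over the 10 genes stayed between −0.17 and 0.27 on the log2 scale in the 6 treatment comparisons.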

How the data were processed

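The deposited values are whole-number counts of reads per gene for 58735 genes in 36 libraries, not normalized by the authors. Per the labels' protocols, TRIzol RNA was selected for poly-A and random primers were used for the cDNA. The submitters' processing notes list hg38 as the build and name DESeq2, featureCounts 1.5.0-p3, HISAT2 2.0.5 and CASAVA. Not given in the sources used here were the annotation release, how reads with several matches were handled and whether counting used strand. Genes were named by GENCODE 29, whose spans all 58735 identifiers match, because 27 symbols differ in the table. The deposited gene length was used for levels per kb.

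Groups and replicate numbers came from the labels. Libraries held 16570601 to 20232735 counts. Counts of the 36 replicate pairs differed by more than sampling noise (chi-square per degree of freedom at least 1.99). This value was 104 and 107 in the pairs with replicate 3 of Cal27 with IL-8. It was 36.6 and 41.1 in the pairs with replicate 3 of the HN4 libraries labelled ACLY, and at most 8.44 in all other pairs. Replicate numbers did not pair the samples, so no block was used.

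Each experiment was fitted over 18 libraries and 6 groups with edgeR 4.0.16 (R 4.3.3): TMM factors, filterByExpr (minimum count 10, minimum total 15), robust quasi-likelihood, 12 residual degrees of freedom, two-sided tests, Benjamini-Hochberg adjustment over 18398 genes (IL-8) or 18556 genes (plasmid), threshold 0.05. The procedure was tested on simulated counts. Levels are CPM with TMM factors over 36 libraries. Alternatives were DESeq2 1.42.0, scaling by library size alone or by upper quartile, a filter at a mean of 1 CPM or none, only the groups compared, all 36 libraries in 1 fit, the replicate number as a block, and each library left out. The genes described are the 7 members, receptors, other ligands, JAK-STAT and mRNA decay lists, of which at most the 4 called genes of highest mean CPM per comparison are named, plus IL6ST, LIFR, IL6R, OSMR, STAT3 and SOCS3 whatever their calls, and the 3 protein-coding genes most like each member by Pearson correlation over 12 group means. This rule sets which genes could be named, and not every such gene is given in every comparison. CSF2RA in Cal27 with ACLY, ELAVL1 and ARID5A, the receptors below the filter and the untested ligands were named outside this rule, after their values were seen. Members and lists were chosen with earlier results of these data known. A marker gene of the leukocyte list is not reported here. Promoters are from RefSeq (GRCh38.p14).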

Additional observations from a re-analysis of the deposited data

Results flagged for a closer look

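The response to IL-8 differed among HN4, HN6 and Cal27 by the edgeR test of both interaction terms for 5 of the 6 tested genes: the adjusted p was 0.00155 for CSF2, 6.26e-09 for CSF3, 1.94e-05 for IL6, 2.89e-07 for LIF and 3.08e-05 for IL11. Fitted log2 differences in HN4, HN6 and Cal27 were −0.75, −0.76 and 0.53 for CSF2, −0.28, −0.43 and 0.76 for LIF, and −0.69, −0.58 and 1.55 for IL6. The Cal27 libraries with IL-8 also held HN4-only genes at 30.9% of their HN4 level, and the part of these in the difference was not tested.

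The difference between ACLY plasmid and vector in Cal27 minus that in HN6 was −1.03 for CSF1, 0.764 for CSF2, 1.95 for CSF3, 1.21 for IL6, 1.24 for LIF and 1.49 for IL11 on the log2 scale. Each passed the edgeR test of the interaction. The Cal27 libraries with ACLY held HN4-only genes at 55.6% of their HN4 level and those of HN6 at 0; the part of these in the difference was not tested.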

How the results depend on the processing

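Over 72 results of single genes and 1866 alternative fits, 1795 kept their side of the threshold, 24 were no longer past it and 47 were newly past it. Of the called values, 0 changed sign, and 57 results kept their call in every alternative. Values that never passed the threshold were not followed for sign. The number of the 6 genes called was within 1.5 times its reported value in 298 of 311 alternatives. For IL-8 in HN4 the reported 3 was 5 with only the groups compared, and 1 to 5 when single libraries were left out. For IL-8 in HN6 the reported 2 was 4 with DESeq2, with only the groups compared and with all 36 libraries in 1 fit, and 1 to 4 when single libraries were left out (1 without replicate 1 or 3 of untreated HN6 or replicate 1 or 2 of HN6 with IL-8, 4 without replicate 2 or 3 of Cal27 with IL-8). With a replicate block the number of genes called was 3, 2 and 6 for IL-8 in HN4, HN6 and Cal27, and 0 calls of single genes changed; same-numbered libraries did not deviate together in all 3 pairs of any comparison. With 3 libraries a group, differences as small as those of LIF in HN6 with ACLY (0.11) lie near what these tests resolve, and genes of a few reads, such as IL34, could not be tested.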
